A study of Mus musculus with 92 samples.

Results

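The p53 target genes described here are 9 mouse genes, Cdkn1a, Mdm2, Ccng1, Phlda3, Eda2r, Zmat3, Sesn2, Bbc3 and Bax, taken by their symbols from the 29956 named genes of a table of normalized RNA levels. They were chosen as targets of the transcription factor p53, with earlier results of these data known. The study grew mouse macrophages from conditionally immortalized blood progenitors, used them as stand-ins for microglia, and removed Adar, the gene of an RNA-editing enzyme that is mutated in the interferon disorder Aicardi-Goutières syndrome. RNA from 92 libraries was sequenced in bulk, and levels are given as log2 CPM, the log2 of a gene's counts relative to the scaled total of its library, in the usual CPM unit.

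ER-Hoxb8 cells are progenitors held immature by a Hoxb8 fusion protein that needs estradiol, and they mature into macrophages when estradiol is withdrawn and M-CSF is given. The unedited ER-Hoxb8 cells came from an FVB mouse heterozygous for Cas9 and were taken as progenitors, after 4 days and as macrophages after 7 days in culture, with 3 libraries each. Bone marrow (BM) of FVB wild-type mice gave progenitors, monocytes and BM-derived (BMD) macrophages grown for 7 days, with 3 libraries each. Microglia came from FVB wild-type mice without injection (9 libraries). Microglia-like cells (MLCs) were BM cells or ER-Hoxb8 cells, both labelled wild type, that had been injected into the brain of Csf1r KO mice, hosts that lack microglia of their own, and sorted out again (6 libraries each). The study describes transplanted donor cells that express green fluorescent protein (GFP), and the sample titles do not say which MLC libraries did. Library names of ER-Hoxb8 MLC replicates 1 to 3 begin with GFP and those of replicates 4 to 6 with WT. The edited cells all carry 1 Cas9 allele and were transduced with a non-targeting control guide (NTC) or with 1 of 2 guides against Adar, called sgRNA 1 and sgRNA 2. NTC and sgRNA 1 cells were taken as progenitors and as macrophages after 7 days (3 libraries each), and sgRNA 2 cells as 3 libraries of progenitors and 5 of macrophages. In a separate experiment NTC and sgRNA 1 macrophages were grown for 7 days with 0, 0.0006, 0.016, 0.4 or 10 µM baricitinib, an inhibitor of the Janus kinases that pass on interferon signals, in 3 or 4 libraries per dose. The protocol text gives 0.00064 and 0.16 µM for the low and middle doses, so trends are given over the rank of the dose. The labels give no age, and each guide is taken as 1 transduced line, so p-values measure the spread between cultures or libraries of a line, not between separate transductions. NTC progenitors and the tested NTC macrophages carry library names of different kinds, and NTC macrophage replicate 2 is named as a redo. That all NTC libraries of this experiment are 1 line is thus assumed. Per the methods the baricitinib replicates were differentiated separately. The study reports independent lines of unedited ER-Hoxb8 cells, and the labels do not say whether their replicates are separate lines.

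The libraries fall into 6 sets by the lowest value they share. The sets are read here as scaled separately, which the labels do not state and the methods state in part, since they keep the data of the provider that sequenced the baricitinib libraries apart, and levels are compared within a set only. Set 1 holds the early ER-Hoxb8 cells (progenitors and day 4) with the fresh marrow cells, and set 2 the unedited macrophages at day 7 with the cells from brain. Set 3 holds the NTC and sgRNA 1 progenitors and macrophages, except NTC macrophage replicate 2, which is alone in set 4 and was left out of the tests except where it is said to be added. The 8 sgRNA 2 libraries form set 5, which has no NTC library, and the 33 baricitinib libraries form set 6. The table holds no counts. If the lowest values came from a prior count of 2, they would correspond to mean depths between 13.7 M and 40.6 M counts per library in the 6 sets.

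Several libraries stood apart. At 0.4 µM baricitinib, Adar KO replicate 2 had a mean of 10.7 log2 CPM over 12 interferon-stimulated genes against 1.22 and 3.06 in the other 2 libraries, and 3.94 over 16 proliferation genes against 6.35 and 6.15. Microglia replicate 8 held RNA of neuron markers (mean 3.29 log2 CPM over 5 genes, at most -0.24 in the other 8 libraries), with 4 of the 5 above 1 CPM, a summed level of 145 CPM and Stmn2 the most abundant. The 3 ER-Hoxb8 progenitor libraries differed among themselves, with means of 7.29, 8.99 and 4.82 over 8 macrophage identity genes and 3.88, 6.13 and 7.47 over the proliferation genes. BMD macrophage replicate 3 had a proliferation mean of 6.91 against 4.83 and 3.31. In set 3 the 6 progenitor libraries, KO and NTC alike, carried 5 of 6 erythroid markers above 1 CPM (mean 4.09 to 4.67 log2 CPM, summed level 480 to 765 CPM, Hbb-bs the most abundant) and 3 or 4 of 5 neuron markers, where the macrophages of that set and the sgRNA 2 progenitors had 0 of 6 erythroid markers. NTC macrophage replicate 2, with a set of its own, also had 5 of 6 erythroid markers above 1 CPM. All 21 libraries of cells from brain held neutrophil RNA, with 7 of 7 markers above 1 CPM and Ngp the most abundant in 19. The mean over the markers was 8.88 to 11.5 log2 CPM in BMD MLCs (summed level 4847 to 34540 CPM), 4.81 to 6.27 in ER-Hoxb8 MLC replicates 1 to 3, 8.69 to 11.6 in replicates 4 to 6, and 5.14 to 8.99 in microglia. Library names also set apart ER-Hoxb8 MLC replicates 4 to 6 from 1 to 3, and BMD macrophage replicate 3 from 1 and 2. The same holds for microglia replicates 8 and 9 against the other microglia, and the labels do not explain these names. The ER-Hoxb8 MLC replicates 4 to 6 and the progenitors of set 3 were left out 1 at a time only, never together.

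As background, p53 is a transcription factor that is held at a low level by the ubiquitin ligase MDM2 and accumulates after DNA damage and other stress. Its targets include genes that halt the cell cycle, genes that open the mitochondrial route to cell death, genes that change metabolism, and Mdm2 itself, which closes a feedback loop. Several of these genes also answer to other factors, so their RNA levels are not a readout of p53 alone.

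Mouse promoter windows, from 250 bases before to 50 bases after each annotated start, were available for 8 of the 9 genes (RefSeq, GRCm38.p6), and Zmat3 had none. On both strands, the p53 half-site motif of 10 bases occurred in 2745 of 32851 such windows (8.36%), and a full site of 2 adjoining half-sites with at most 2 mismatches in 52 (0.158%). A half-site lay in a window of Cdkn1a, Mdm2, Ccng1 and Bax, and a full site, with 1 mismatch and starting 51 bases before the annotated start of that window, in one of Cdkn1a. Another Cdkn1a window, at chr17:29093519-29093818 (+), had 0 half-sites and 0 full sites. Counted by window, 4 of the 11 windows of these genes held a half-site and 1 a full site. These 4 windows are shown. Capitals mark the half-sites and, in the Cdkn1a window, the full site, whose last 10 bases carry its mismatch and are no half-site, and each sequence is written along the strand of the gene. The windows are chr17:29090729-29091028 (+) for Cdkn1a, chr10:117710709-117711008 (-) for Mdm2, chr11:40755237-40755536 (-) for Ccng1 and chr7:45466849-45467148 (-) for Bax. A match is a description of letters, not a site of binding or a cause, and the sequences come from another genome build than the expression values.
Cdkn1a: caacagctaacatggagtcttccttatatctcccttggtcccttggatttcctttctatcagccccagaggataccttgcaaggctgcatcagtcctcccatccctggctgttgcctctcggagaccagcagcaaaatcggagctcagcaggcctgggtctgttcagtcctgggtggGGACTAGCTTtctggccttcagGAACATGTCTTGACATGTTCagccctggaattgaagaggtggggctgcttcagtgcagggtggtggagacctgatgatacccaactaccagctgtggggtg
Mdm2: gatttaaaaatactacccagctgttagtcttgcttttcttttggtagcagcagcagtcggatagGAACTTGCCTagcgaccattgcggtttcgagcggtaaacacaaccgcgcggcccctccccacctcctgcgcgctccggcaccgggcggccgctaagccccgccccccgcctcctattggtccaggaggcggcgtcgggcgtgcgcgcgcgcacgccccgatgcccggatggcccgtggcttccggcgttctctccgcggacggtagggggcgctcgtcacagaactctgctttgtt
Ccng1: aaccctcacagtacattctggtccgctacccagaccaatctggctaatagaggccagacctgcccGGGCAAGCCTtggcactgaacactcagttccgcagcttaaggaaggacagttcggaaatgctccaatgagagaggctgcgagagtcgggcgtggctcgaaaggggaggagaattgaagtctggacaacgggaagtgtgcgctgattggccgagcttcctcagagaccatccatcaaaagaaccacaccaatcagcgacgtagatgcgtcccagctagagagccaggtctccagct
Bax: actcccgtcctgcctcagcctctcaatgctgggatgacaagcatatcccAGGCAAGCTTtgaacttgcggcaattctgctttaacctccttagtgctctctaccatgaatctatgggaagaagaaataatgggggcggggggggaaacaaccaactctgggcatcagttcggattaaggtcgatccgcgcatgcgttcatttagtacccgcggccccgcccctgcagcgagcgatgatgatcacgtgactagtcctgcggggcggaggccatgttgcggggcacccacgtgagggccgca

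Adar RNA does not check the edit, since small insertions or deletions leave the transcript to be counted. In set 3 Adar stood at 4.20, 3.42 and 4.28 log2 CPM in NTC progenitors and 4.36, 4.23 and 4.24 in sgRNA 1 progenitors. In macrophages it was 5.73 and 5.67 in NTC against 6.96, 7.15 and 7.01 in Adar KO, so all 3 KO libraries were higher. The difference in log2 CPM (log2FC) was 0.31 in progenitors (adjusted p = 0.927 in limma) and 1.34 in macrophages (adjusted p = 0.000976), and Adar is itself an interferon-induced gene. In the sgRNA 2 line it was 4.35, 4.56 and 4.36 in progenitors and 7.02, 7.00, 7.02, 7.03 and 6.99 in macrophages, which were all higher. With 0 µM baricitinib it stood at 5.12, 4.94 and 4.69 in NTC and 7.42, 6.52 and 6.37 in Adar KO, and with 10 µM at 3.70, 3.64 and 3.22 against 1.55, 2.15, 2.91 and 2.03. The KO libraries were thus all higher at 0 µM (log2FC 1.85, adjusted p = 0.00513) and all lower at 10 µM (-1.36, 0.0148). At 0.0006 µM it was 4.66, 5.04 and 4.81 in NTC and 5.90, 5.94 and 6.21 in Adar KO, and at 0.016 µM 4.31, 4.58, 4.40 and 4.34 against 6.25, 5.90 and 6.37, so all KO libraries were higher at both. In limma the log2FC was 1.18 at 0.0006 µM (adjusted p = 0.0653, not past the test) and 1.77 at 0.016 µM (0.00305). At 0.4 µM it was 4.50, 4.22, 4.29 and 3.92 in NTC and 4.12, 7.38 and 4.21 in Adar KO, where 7.38 is replicate 2 and the groups overlapped. The log2FC at 0.4 µM was 1.01 (adjusted p = 0.137 in limma). NTC macrophage replicate 2 of the first experiment, in a set of its own, had 5.86.

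Of the 9 genes, 7 passed the filter on low values in sets 2, 3, 5 and 6, and all 9 did in set 1. Phlda3, a repressor of the kinase AKT, and Eda2r, a receptor of the tumour necrosis factor family, lay under 1 CPM in all but a few libraries of the other sets and were not tested there. For Phlda3 these include all 3 ER-Hoxb8 macrophage libraries (0.15, 0.85 and 0.58 log2 CPM). All MLC libraries were at the lowest value of set 2 (-3.62). In the sgRNA 2 line Phlda3 ran from -0.53 to 0.29 in macrophages and from -2.65 to -2.01 in progenitors. In set 3 Phlda3 ran from -3.43 to -1.27 log2 CPM and Eda2r from -3.43 to -2.03, where -3.43 is the lowest value of that set. Counts of a gene may include reads of a neighbour where transcripts of both overlap, and how far they do was not tested. Cdkn1a, Sesn2 and Bax overlap a neighbour in the annotation, and the strand of the libraries is not stated. Levels of different genes are not compared with each other.

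In progenitors, where the question is what Adar loss does before maturation, Cdkn1a and Ccng1 were lower in Adar KO than in NTC. Cdkn1a, which encodes the cyclin-dependent kinase inhibitor p21, was 6.39, 6.67 and 6.61 log2 CPM in NTC and 5.33, 5.55 and 5.38 in Adar KO. The groups did not overlap, and the lowest NTC library was above the highest KO library. Its log2FC was -1.13 (standard error 0.14, adjusted p = 0.00263 in limma), and 11 of 11 refits kept the call with adjusted p from 0.000904 to 0.028. Under an added fold limit of 2 on the log2 scale neither Cdkn1a nor any other of the 7 genes would be called, here or in KO macrophages. Ccng1, cyclin G1, another early target of p53, was 8.47, 8.30 and 8.13 in NTC and 7.91, 7.71 and 7.59 in Adar KO, again without overlap. Its log2FC was -0.56 (standard error 0.11, adjusted p = 0.0415 in limma), and its alternatives ran from 0.0142 to 0.226. Leaving out 1 library took Ccng1 past the threshold for KO replicate 2 (adjusted p = 0.179), KO replicate 3 (0.226), NTC replicate 1 (0.129) and NTC replicate 2 (0.138), as did no filter (0.155) and a fit of the 2 groups only (0.119).

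Replicate numbers paired the NTC and KO progenitor libraries (residual correlations from 0.193 to 0.417 over 3 pairs). With the replicate as a block, limma gave an adjusted p of 0.00712 for Cdkn1a and 0.0142 for Ccng1. The feedback gene Mdm2 was 6.12, 6.15 and 6.14 in NTC and 5.89, 6.27 and 6.26 in Adar KO progenitors, so the KO libraries lay on both sides of the NTC libraries (log2FC 0.00, 95% interval from -0.43 to 0.44). Zmat3, an RNA-binding zinc finger protein that acts on splicing, had a log2FC of -0.62 without overlap of the groups, but an adjusted p of 0.253. Bax, Bbc3 and Sesn2 had log2FC of -0.28, 0.02 and 0.18, none past the test. In all, 0 of the 7 tested genes rose and 2 fell, where limma called 0.917% of all 11119 tested genes (732 at an unadjusted p under 0.05). The median log2FC of the 7 was -0.28, and that of all tested genes -0.01.

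In macrophages of set 3, with 2 NTC libraries, Cdkn1a did not differ past the test in Adar KO, and Mdm2 was higher. Cdkn1a was 8.14 and 8.10 in NTC and 8.40, 8.09 and 7.86 in Adar KO, so the groups overlapped (log2FC -0.01, 95% interval from -0.34 to 0.33, adjusted p = 0.988 in limma). Mdm2 was 6.55 and 7.33 in NTC and 7.69, 8.22 and 8.15 in Adar KO, and all 3 KO libraries were above both NTC libraries. Its log2FC was 1.08 (standard error 0.22, adjusted p = 0.00517), with 0.000638 to 0.0611 over the alternatives. The NTC libraries differ by more than those of the KO group, and without NTC replicate 1 the log2FC was 0.69 with an adjusted p of 0.0611, and with no filter the adjusted p was 0.0508. In NTC replicate 2, which has a set of its own, Cdkn1a read 7.99 and Mdm2 6.61.

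Zmat3 fell in Adar KO macrophages, from 5.02 and 4.64 in NTC to 4.35, 3.99 and 4.08, without overlap. Its log2FC was -0.69 (standard error 0.20, adjusted p = 0.0291 in limma), and the alternatives ran from 0.0165 to 0.233. It lost the call without KO replicate 2 (adjusted p = 0.0954), KO replicate 3 (0.0692) or NTC replicate 1 (-0.50, 0.233), and with no filter (0.0909). With NTC replicate 2 brought in on a common scale its log2FC was -0.53 and its adjusted p 0.0611. The pore-forming BAX gene had a log2FC of -0.19, Bbc3, whose product PUMA triggers the same death route, -0.69, Ccng1 -0.23, and Sesn2, an inhibitor of the growth kinase complex mTORC1, 0.02, none past the test. The 2 NTC libraries differ in Sesn2, whose log2FC was -0.58 without NTC replicate 1 and 0.62 without NTC replicate 3. So 1 gene rose and 1 fell of 7, where 21.8% of all tested genes were called. The median log2FC was -0.19 for the 7 genes and 0.05 for all, and quantile scaling moved the latter by -0.12.

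**Figure D1:**
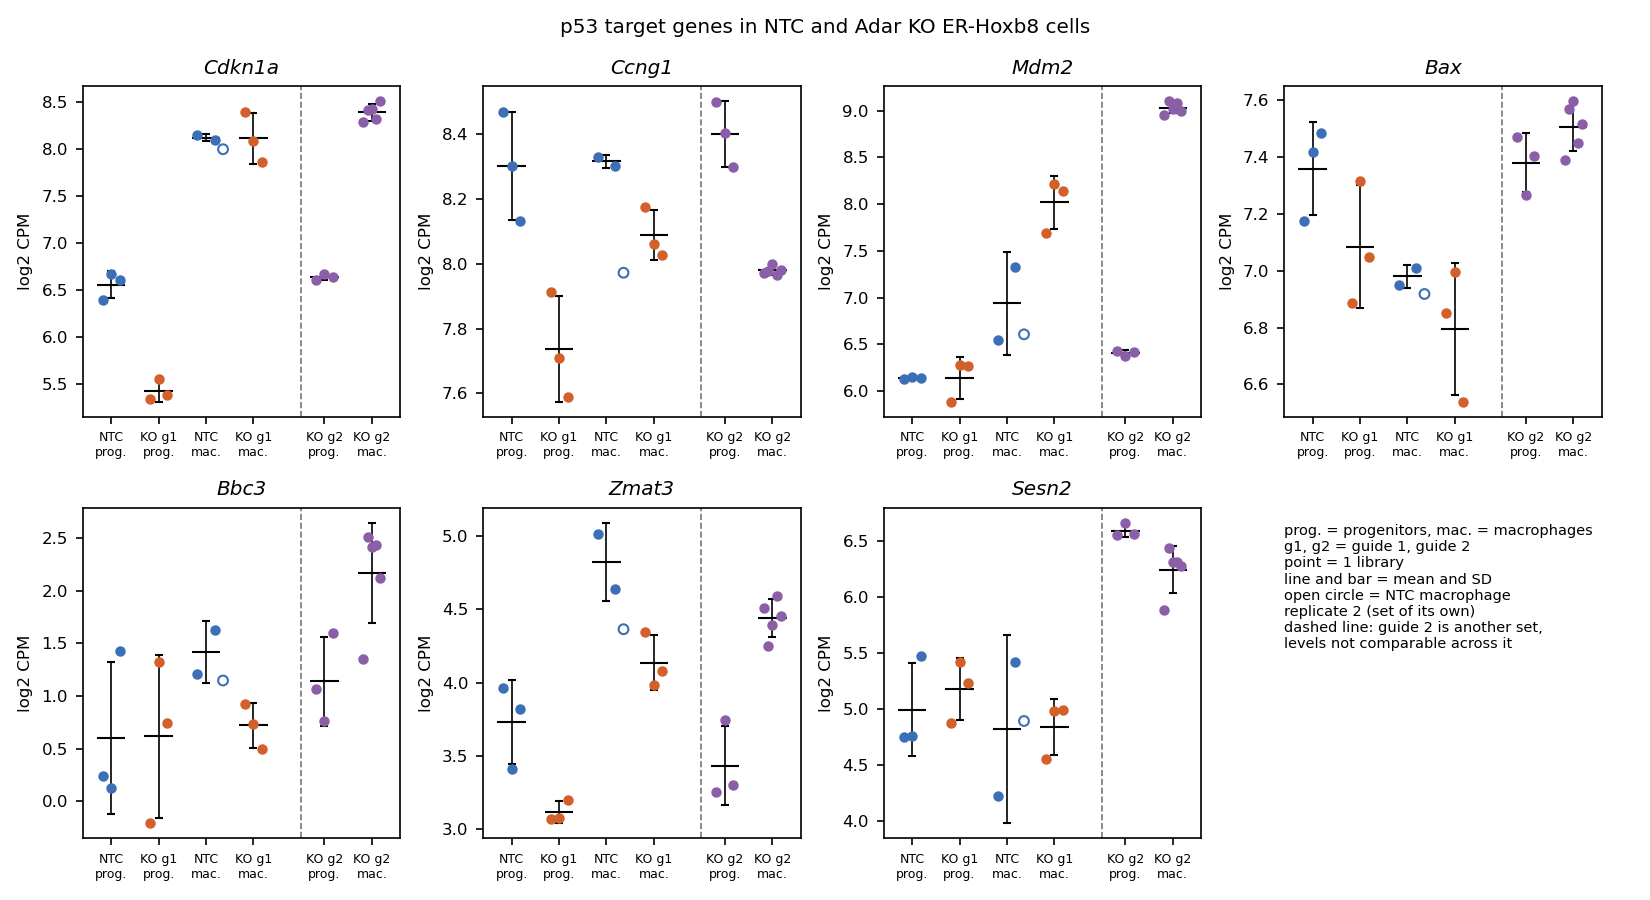
Log2 CPM of the tested p53 target genes in each progenitor and macrophage library of NTC, Adar KO sgRNA 1 and Adar KO sgRNA 2 cells, with points for libraries and lines and bars for mean and SD. Cdkn1a in progenitors lies at 6.39 to 6.67 in NTC and 5.33 to 5.55 in sgRNA 1, and libraries of different sets are not on one scale.

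The KO effect differed between the stages for both genes. The effect on Cdkn1a in macrophages minus that in progenitors was 1.13 (standard error 0.20, adjusted p = 0.00365 in limma), and 16 of 16 refits kept it with adjusted p from 0.000739 to 0.0304, though it is under the fold limit. The same difference for Mdm2 was 1.08 (standard error 0.30, adjusted p = 0.0342), with 0.00348 to 0.182 over the alternatives. Mdm2 lost this call without KO progenitor replicate 1 (adjusted p = 0.0775) or 3 (0.0556), NTC progenitor replicate 1 (0.0533), 2 (0.0666) or 3 (0.056), KO macrophage replicate 2 (0.0831) or 3 (0.0651), and NTC macrophage replicate 1, where the difference was 0.69 (0.135). Quantile scaling gave 0.89 with an adjusted p of 0.075, and no filter an adjusted p of 0.182. Of the 7 genes 2 passed, both upward, against 13.6% of all tested genes, and the medians were 0.09 and 0.08.

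Maturation from progenitor to macrophage raised Cdkn1a, Mdm2 and Zmat3 in both lines of set 3. Cdkn1a rose by a log2FC of 1.56 in NTC (standard error 0.15, adjusted p = 2.59e-06 in limma) and 2.69 in Adar KO (0.14, 9.47e-09), and the KO line started from the lower level. Mdm2 rose by 0.80 in NTC (0.22, 0.00699) and 1.88 in Adar KO (0.20, 4.81e-06), and Zmat3 by 1.09 (0.20, 0.000397) and 1.02 (0.18, 0.000274). In NTC the Mdm2 call was lost without NTC macrophage replicate 3, with a log2FC of 0.41 and an adjusted p of 0.116, the highest of its alternatives, which began at 0.000561. Without NTC macrophage replicate 1 that log2FC was 1.19, and with no filter its adjusted p was 0.0505. Ccng1 rose in Adar KO by 0.35 (0.11, 0.0146), with 0.00305 to 0.0671 over the alternatives and the highest value without KO progenitor replicate 3 (0.28). In NTC the test was also passed by Bax without NTC progenitor replicate 1 (-0.47, adjusted p = 0.0297), Bbc3 without NTC progenitor replicate 3 (1.23, 0.0328) and Sesn2 without NTC macrophage replicate 3 (-0.77, 0.0499, against -0.17 with all libraries and 0.42 without NTC macrophage replicate 1), and by Bax with NTC macrophage replicate 2 added on a common scale (-0.35, 0.0322, where its alternatives ran from 0.0297 to 0.17). In Adar KO Bax passed without progenitor replicate 1 (-0.39, 0.0473) or macrophage replicate 2 (-0.39, 0.0465). The called genes numbered 3 in NTC (3 up, 71.5% of all tested genes called) and 4 in Adar KO (4 up, 71.1%), with medians of 0.80 and 0.35 for the 7 genes and -0.08 and -0.06 for all. Since about 7 in 10 genes changed between the stages, these counts are below the share called in both directions. Of all tested genes 33% rose in NTC and 34.1% in Adar KO, shares that the 3 and 4 of 7 exceed. Neither difference was tested.

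The sgRNA 2 line, the other guide, could be read against its own progenitors only. Mdm2 was 6.43, 6.37 and 6.42 in its progenitors and 8.96, 9.10, 9.02, 9.08 and 9.00 in its macrophages. The stages were far apart and the libraries of a stage close together, and the log2FC was 2.62 (standard error 0.04, adjusted p = 3.97e-12 in limma). Cdkn1a went from 6.60, 6.67 and 6.63 to 8.28, 8.41, 8.42, 8.32 and 8.51, with a log2FC of 1.75 (0.05, 3.72e-10), and Zmat3 rose by 1.01 (0.13, 3.64e-05). Bbc3 rose by 1.03 (0.30, 0.00855), with 0.000672 to 0.0698 over its alternatives, Ccng1 fell by 0.42 (0.04, 8.1e-06) and Sesn2 fell by 0.35 (0.11, 0.0126), with 0.00182 to 0.0881. Quantile scaling took away the calls of Bbc3 (0.63, adjusted p = 0.0698) and Sesn2 (-0.23, 0.0721), as did no filter (0.0573 and 0.0881). Bax passed without progenitor replicate 1 (0.17, 0.045) or macrophage replicate 1 (0.15, 0.0353), and under quantile scaling (0.25, 0.00259). So 4 genes rose and 2 fell of 7, where 81.1% of all tested genes were called, and the medians were 1.01 for the 7 genes and -0.03 for all. The stage changes of the 3 lines stand side by side here, and no test compares the sgRNA 2 line with the others because their libraries belong to another set.

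**Figure D2:**
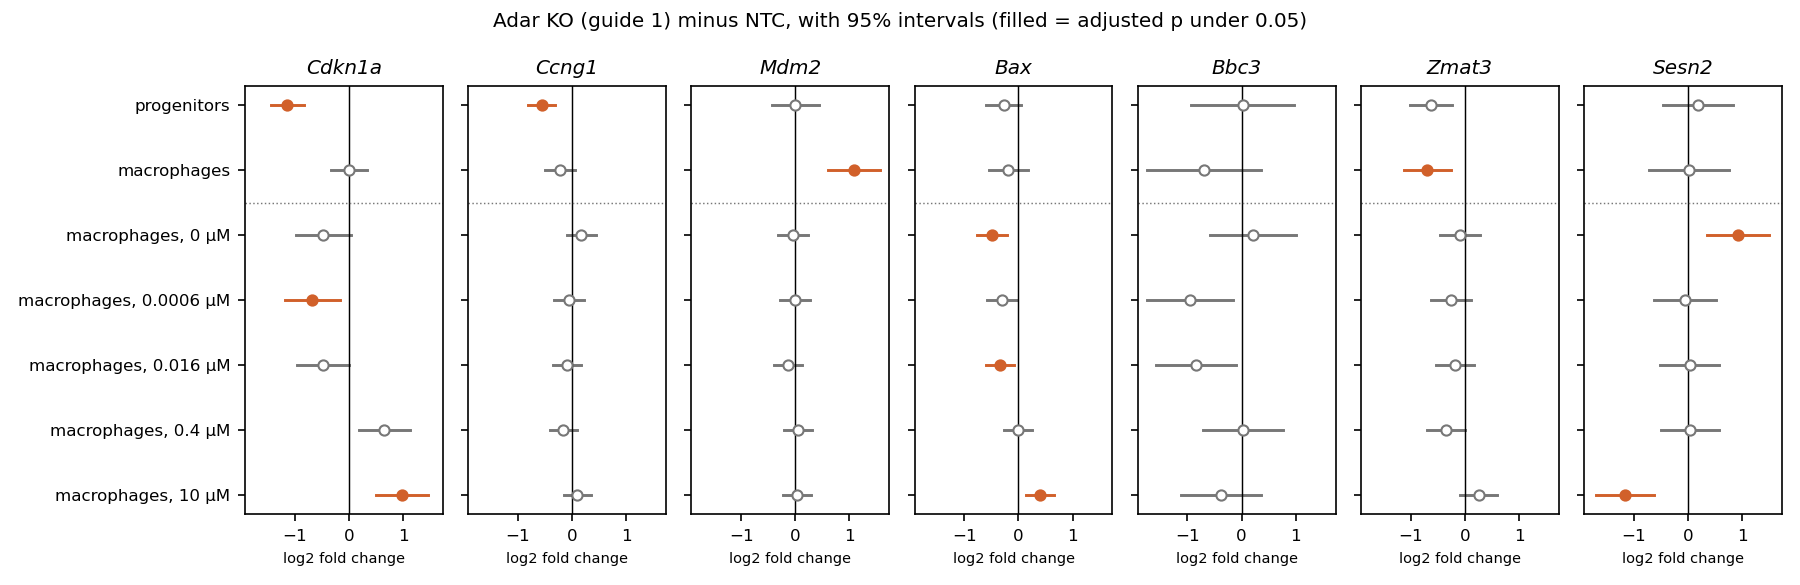
Log2FC of each tested p53 target gene in Adar KO sgRNA 1 over NTC, in progenitors, in macrophages and at each baricitinib dose, with 95% intervals from limma. Cdkn1a stands at -1.13 in progenitors, -0.01 in macrophages and 0.98 at 10 µM.

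Other genes of the pathway were read in lists. Of 23 tested other p53 target genes, limma called 0 in KO progenitors (an unadjusted p under 0.05 was reached by 732 genes of the whole table), and 2 rose and 2 fell in KO macrophages, where 21.8% of all tested genes were called (0.917% in progenitors), a share that the 4 of 23 do not exceed. The 4 were the growth factor gene Gdf15 (log2FC 2.35, adjusted p = 0.042), Aen (0.48, 0.00753), the sestrin Sesn1 (-1.56, 0.00437) and the antiproliferative gene Btg2 (-1.50, 0.00214). Among 10 genes for p53 and its regulators, Cdkn2a, which encodes the MDM2 inhibitor ARF and the kinase inhibitor p16, rose in KO progenitors (1.31, 0.0308) and KO macrophages (1.37, 0.00424). Trp53, the gene of p53, fell in KO progenitors (-0.54, 0.0205), had 0.13 in macrophages (0.423), and differed between the stages by 0.67 (0.00921). The checkpoint kinase gene Chek1 rose in KO macrophages (1.43, 0.00216). Of 10 tested BCL-2 family genes, Bcl2a1b rose in KO progenitors (1.09, 0.00586), and Bcl2 (2.19), Bid (1.21) and Bcl2l1 (1.11) rose in KO macrophages. Of 4 tested CDK inhibitors outside the 9 genes, 0 passed in progenitors and Cdkn1b fell in macrophages (-0.89, 0.0189). Median log2FC in KO macrophages were -0.15 for the other p53 targets, 0.06 for the regulators, 0.03 for the BCL-2 family and -0.02 for the CDK inhibitors.

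Growth and interferon genes moved beside these. Of 16 proliferation genes 0 passed in KO progenitors and 15 rose in KO macrophages (medians 0.01 and 2.22, against 0.917% and 21.8% of all tested genes called), and of 12 interferon-stimulated genes 0 passed in progenitors and 12 rose in macrophages (medians -0.10 and 5.45). The mean over the proliferation genes was 2.15 and 2.20 log2 CPM in NTC macrophages and 4.17 to 4.20 in Adar KO, and that over the interferon-stimulated genes 3.37 and 3.29 against 7.72 to 8.88. Of 8 genes of the integrated stress response 4 rose in KO macrophages (median 0.87), and of 6 NRF2 targets 2 rose (0.60), with 0 of each past the test in progenitors. Their part in the levels of Mdm2, Zmat3 and Cdkn1a was not tested. In bulk RNA, fewer cells of a kind and less RNA per cell cannot be told apart.

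In the baricitinib experiment the first question is what the KO effect is in macrophages without the inhibitor. At 0 µM Mdm2 was 7.63, 7.41 and 7.53 in NTC and 7.46, 7.46 and 7.54 in Adar KO, so the groups overlapped, with a log2FC of -0.04 (95% interval from -0.31 to 0.24). Sesn2 was 4.59, 4.40 and 4.25 in NTC and 5.60, 5.39 and 5.02 in Adar KO, and Bax 7.52, 7.32 and 7.50 against 6.62, 7.03 and 7.24. All KO libraries were higher for Sesn2 and lower for Bax. Sesn2 rose by 0.93 (standard error 0.28, adjusted p = 0.0154 in limma) and Bax fell by 0.48 (0.13, 0.00902). Sesn2 lost its call without NTC replicate 3 (0.84, adjusted p = 0.0624) or KO replicate 1 (0.80, 0.0786), the highest of alternatives that began at 0.00608. With no filter its adjusted p was 0.0529. Bax lost its call without KO replicate 1, with -0.31 and an adjusted p of 0.107, and in a fit of the 2 groups only (0.0585), where the range over its alternatives was 0.00202 to 0.107. Of 7 genes 1 rose and 1 fell against 24.9% of all tested genes called, and the medians were -0.04 and -0.03. The log2FC of Cdkn1a was -0.01 in the first experiment and -0.47 here at 0 µM, neither past the test. Whether the Mdm2 and Cdkn1a effects of the first experiment differ from those here was not tested, since the libraries belong to different sets. The proliferation genes also differed in direction, with 15 of 16 lower in Adar KO at 0 µM (median -1.66).

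At 0.0006 µM Cdkn1a was 8.37, 8.53 and 8.52 in NTC and 7.63, 8.03 and 7.74 in Adar KO, without overlap. It fell by 0.68 (standard error 0.25, adjusted p = 0.0416 in limma), and the alternatives ran from 0.00238 to 0.135. The call was lost without NTC replicate 1 (adjusted p = 0.0598), 2 (0.105) or 3 (0.0979) and without KO replicate 1 (0.129) or 3 (0.103), so 5 of the 6 libraries were needed, and it was lost with no filter as well (0.135). It was 1 of 7 genes, against 28.6% of all, and the median of the 7 was -0.25 (0.00 for all). Without KO replicate 3 Bbc3 passed as well (-1.19, 0.0432), and its alternatives are all lower in Adar KO, and Bax passed under quantile scaling (-0.40, 0.0313, alternatives up to 0.299). At 0.016 µM Bax was 7.48, 7.45, 7.57 and 7.38 in NTC and 7.02, 7.18 and 7.21 in Adar KO, again without overlap. Bax fell by 0.34 (standard error 0.13, adjusted p = 0.041), with alternatives from 0.00503 to 0.163. Its call needed NTC replicates 1 (adjusted p = 0.0709 without it), 2 (0.0618) and 3 (0.101) and KO replicates 1 (0.163), 2 (0.0722) and 3 (0.0535), and was lost with no filter (0.106). Without KO replicate 3 Bbc3 passed at this dose too (-1.17, 0.0261). Bax was 1 of 7 against 31.8% of all, with medians of -0.18 and 0.00. The log2FC of Cdkn1a was -0.48 at this dose and -0.47 at 0 µM, not past the test (0.121 and 0.173). At 0 µM it was -0.17 (0.697) without KO replicate 1, and -0.65 (0.007) with a block by library-name series, a grouping chosen after the data were seen. Its 11 alternatives set out beforehand ran from 0.0673 to 0.697 there, so none passed. At 0.016 µM Cdkn1a did pass with the replicate block (-0.56, adjusted p = 0.0175), the series block (-0.54, 0.0114), under quantile scaling (-0.65, 0.0175) and in a fit of the 2 groups only (-0.48, 0.00332), where its alternatives ran from 0.00332 to 0.33.

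At 0.4 µM the values depend on the library that stood apart, whose label is not known to be right and which was kept under it. Cdkn1a was 8.31, 8.56, 8.62 and 7.92 in NTC and 8.80, 9.67 and 8.55 in Adar KO, where 9.67 is replicate 2. The groups overlapped and 0 of the 7 genes passed in limma, against 13.3% of all tested genes called and 3208 of 11339 at an unadjusted p under 0.05. For Cdkn1a the KO and NTC means lay 0.66 apart with all libraries (adjusted p = 0.0595, standard error 0.23). The log2FC was 0.32 (0.464) without KO replicate 2, 0.76 (0.0425) without KO replicate 1 and 0.88 (0.0161) without KO replicate 3, 0.57 (0.0393) with the replicate block and 0.60 (0.0149) with the series block. Zmat3 passed without KO replicate 1 (-0.51, 0.0459). In replicate 2 Mdm2 read 8.05 against 7.26 and 7.28, and its log2FC turned from 0.05 to -0.21 without that library, while that of Bbc3 turned from 0.03 to -0.40, neither past the test. The medians were 0.03 for the 7 genes and 0.00 for all, and without replicate 2 736 genes of the table were called in place of 1503.

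At 10 µM Cdkn1a was higher in Adar KO. It was 8.74, 9.26 and 8.52 in NTC and 9.49, 10.24, 9.92 and 9.60 in Adar KO, and Sesn2 was 3.67, 4.01 and 3.81 against 1.61, 3.09, 3.25 and 2.70. All 4 KO libraries lay above every NTC library for Cdkn1a and below every one for Sesn2. Cdkn1a rose by 0.98 (standard error 0.23, adjusted p = 0.00114 in limma) and Sesn2 fell by 1.17 (0.26, 0.00064), and both kept the call in 12 of 12 refits, though not under the fold limit, which left 0 of the 7 genes. Bax was 7.72, 8.01 and 7.82 in NTC and 8.14, 8.33, 8.32 and 8.22 in Adar KO, without overlap, and rose by 0.40 (0.13, 0.0108), with 0.00293 to 0.0666 over its alternatives. It lost the call without NTC replicate 1 (0.33, adjusted p = 0.0655) and under quantile scaling (0.30, 0.0666). Of 7 genes 2 rose and 1 fell, against 44.5% of all tested genes called, and the medians were 0.09 and 0.00.

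The change of the KO effect with dose was tested directly. The KO effect at 10 µM minus that at 0 µM was 1.45 for Cdkn1a (standard error 0.34, adjusted p = 0.00144 in limma), 0.88 for Bax (0.18, 0.000455) and -2.09 for Sesn2 (0.38, 0.000114). Each kept its call in 17 of 17 refits, the highest adjusted p being 0.0087, 0.00263 and 0.000678, while under the fold limit Sesn2 alone was called. Adar KO replicate 1 at 0 µM had the lowest Cdkn1a (6.97 against 7.80 and 7.94) and the lowest Bax (6.62) of its group. Without that library the differences were 1.14 for Cdkn1a (adjusted p = 0.0087), 0.71 for Bax and -1.96 for Sesn2. That made 3 of 7 genes, 2 up and 1 down, against 38.8% of all tested genes, with medians of 0.07 and 0.07. These comparisons share their control libraries, so their values are given side by side and not correlated.

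**Figure D3:**
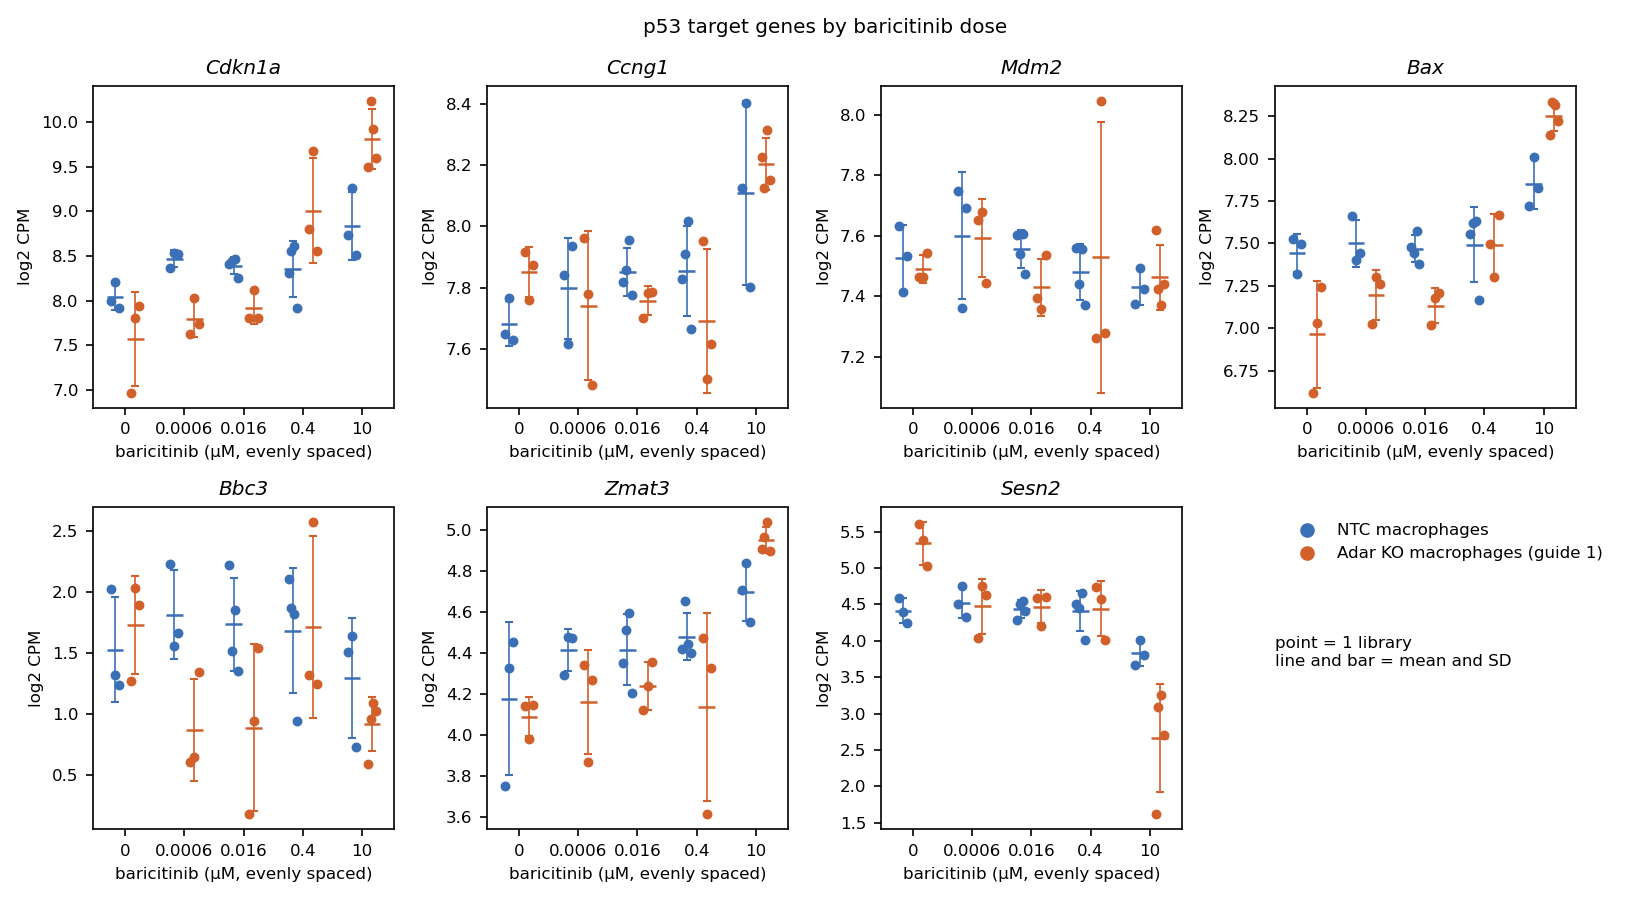
Log2 CPM of the tested p53 target genes in each NTC and Adar KO sgRNA 1 macrophage library by baricitinib dose, in rank order, with lines and bars for the mean and SD of each group. Cdkn1a in Adar KO lies at 6.97 to 7.94 at 0 µM and 9.49 to 10.24 at 10 µM, and Sesn2 at 5.02 to 5.60 and 1.61 to 3.25.

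Within Adar KO macrophages, 10 µM against 0 µM raised 4 of the 7 genes and lowered 2. Cdkn1a rose by 2.24 (standard error 0.23, adjusted p = 2.78e-09 in limma), Bax by 1.29 (0.13, 9.17e-10), Zmat3 by 0.87 (0.17, 5.74e-05) and Ccng1 by 0.35 (0.12, 0.013), while Sesn2 fell by 2.68 (0.26, 9.84e-10). Bbc3 fell by 0.81 (0.36, 0.0497), with 0.0292 to 0.167 over its alternatives. Bbc3 lost the call without KO replicate 2 (0.167) or 3 (0.127) at 0 µM and without replicate 1 (0.116), 2 (0.0695), 3 (0.0539) or 4 (0.0614) at 10 µM. It also lost it with no filter (0.125), a pseudocount of 1 CPM (0.0503), quantile scaling (0.0818), the replicate block (0.104) and the series block (0.0641). Ccng1 lost it without replicate 2 at 0 µM (0.31, adjusted p = 0.0592), the highest of alternatives that began at 0.00912. Without replicate 1 at 0 µM Cdkn1a rose by 1.94, Bax by 1.11, and Sesn2 had -2.54. Mdm2 had -0.03 (95% interval from -0.29 to 0.23), so the feedback gene did not move with its companions past the test. These 6 of 7 genes, of which the fold limit would leave 2, compare with 65% of all tested genes called, with medians of 0.35 and 0.05.

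In NTC macrophages 10 µM raised 3 of the 7 genes, Cdkn1a by 0.80 (standard error 0.25, adjusted p = 0.0321 in limma), Ccng1 by 0.43 (0.13, 0.0294) and Bax by 0.41 (0.13, 0.0432). Of all tested genes 13.6% were called, and the medians were 0.41 for the 7 and -0.01 for all. Each call rested on single libraries, with adjusted p from 0.00641 to 0.186 for Cdkn1a, 0.00628 to 0.21 for Ccng1 and 0.0228 to 0.186 for Bax over the alternatives. Cdkn1a lost it without replicate 1 (0.102) or 3 (0.0993) at 0 µM and 1 (0.0627) or 2 (0.186) at 10 µM. Ccng1 lost it without replicate 1 (0.0998) or 3 (0.0882) at 0 µM and 1 (0.0813) or 2 (0.21) at 10 µM, where the last gave 0.28 in place of 0.43. Bax lost it without replicate 1 (0.0813), 2 (0.148) or 3 (0.0743) at 0 µM and 1 (0.0526), 2 (0.186) or 3 (0.079) at 10 µM. With no filter the adjusted p was 0.112 for Cdkn1a, 0.0789 for Ccng1 and 0.114 for Bax, a fit of the 2 groups only gave 0.0642 for Ccng1, and the series block 0.0638 for Bax. Zmat3 passed without replicate 3 at 0 µM (0.66, adjusted p = 0.0346), with a pseudocount of 1 CPM (0.50, 0.0488) and under quantile scaling (0.55, 0.0401), with alternatives up to 0.322. Sesn2 passed in a fit of the 2 groups only (-0.58, 0.0276), with alternatives up to 0.411. Without single libraries the number of all genes called fell to 661 (replicate 1 at 0 µM), 1015 (replicate 3 at 0 µM), 874 (replicate 1 at 10 µM) and 789 (replicate 2 at 10 µM), from 1540.

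Over the 5 doses, the slope per dose rank in Adar KO macrophages was 0.57 log2 CPM for Cdkn1a (standard error 0.05, adjusted p = 3.77e-10 in limma), 0.29 for Bax (0.03, 1.42e-09), 0.17 for Zmat3 (0.04, 0.000316) and -0.54 for Sesn2 (0.06, 9.51e-09). Without the 0.4 µM replicate 2 the slopes of Cdkn1a, Bax and Sesn2 were 0.54, 0.30 and -0.54. Ccng1 had 0.07 (0.03, 0.0405), with 0.0171 to 0.117 over its alternatives, and lost the call without replicate 2 (0.117) or 3 (0.061) at 0 µM, 3 at 0.0006 µM (0.0894), 1 at 0.4 µM (0.0892), or 1 (0.0626) or 3 (0.0858) at 10 µM, with no filter (0.104) and under quantile scaling (0.107). That was 4 up and 1 down of 7, against 63.3% of all tested genes, with medians of 0.07 and 0.01. The Cdkn1a levels rise mostly at the upper doses, with group means of 7.57, 7.80 and 7.92 at the 3 lowest and 9.01 (8.68 without replicate 2) and 9.81 at the upper 2. In NTC the 1 called gene was Ccng1, with a slope of 0.09 (0.03, 0.0392), against 11.5% of all tested genes and medians of 0.08 and 0.00. Its alternatives ran from 0.00866 to 0.206, and it lost the call without replicate 1 (0.115), 2 (0.0505) or 3 (0.0964) at 0 µM, 2 at 0.0006 µM (0.0739), 2 (0.0557) or 3 (0.0593) at 0.4 µM, or 1 (0.092) or 2 (0.206, slope 0.06) at 10 µM, with no filter (0.102) and under quantile scaling (0.0507). In NTC, Bax passed without replicate 4 at 0.4 µM (0.0325) and Zmat3 without replicate 3 at 0 µM (0.0429). The Cdkn1a slope in NTC was 0.15 (0.078) and passed with the replicate block (0.16, adjusted p = 0.016), the series block (0.14, 0.0141) and under quantile scaling (0.15, 0.0451), with alternatives up to 0.287. Bax also passed with the block (0.0421, alternatives up to 0.236) and Zmat3 under quantile scaling (0.0487, up to 0.323). The count of all genes called in NTC fell from 1306 to 556 without replicate 1 at 0 µM, 748 without replicate 1 at 10 µM and 735 without replicate 2 at 10 µM.

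Ordered by group mean over the 10 groups, Cdkn1a was highest in Adar KO at 10 µM, and the step down to Adar KO at 0.4 µM (0.80) was the only one larger than the spread of both neighbours, though single libraries of these groups overlapped. Without replicate 2 at 0.4 µM the mean of that group was 8.68, under NTC at 10 µM (8.84), and the steps beyond the spread were those from Adar KO to NTC at 10 µM (0.98, no overlap) and from Adar KO at 0.4 µM to NTC at 0.0006 µM (0.20). For Sesn2 the steps beyond the spread lay at the ends, from Adar KO at 0 µM down to the next group (0.81), from NTC at 0.4 µM to NTC at 10 µM (0.58), and from there to Adar KO at 10 µM (1.17). For Bax they were the steps from Adar KO to NTC at 10 µM (0.40), from there to NTC at 0.0006 µM (0.35), and from NTC at 0 µM to Adar KO at 0.0006 µM (0.25). For Zmat3 they were the steps from Adar KO to NTC at 10 µM (0.25, no overlap) and from there to NTC at 0.4 µM (0.22). Another went from NTC at 0.0006 µM to Adar KO at 0.016 µM (0.18). Without replicate 2 at 0.4 µM that last step of Zmat3 began at Adar KO at 0.4 µM (0.16). The 10 group means of Mdm2 did not differ beyond the spread of their neighbours at any step. Without replicate 2 at 0.4 µM the step of Sesn2 down to NTC at 10 µM began at Adar KO at 0.4 µM (0.55), that of Bax down from NTC at 10 µM ended there (0.27), and Mdm2 had 1 such step, down to Adar KO at 0.4 µM (0.16).

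After removal of the 10 group means, pairwise Pearson correlations of the 7 genes over the 33 baricitinib libraries ran from -0.588 (Mdm2 and Zmat3) to 0.57 (Cdkn1a and Bbc3). Without Adar KO replicate 2 at 0.4 µM these were -0.212 and 0.435, and the range was -0.268 (Mdm2 and Sesn2) to 0.701 (Cdkn1a and Bax), so they depend on that library. Among 11339 genes, those most like the mean of the 7 were C1qc (r = 0.821), S1pr1 (0.79), C1qa (0.725), Gbf1 (0.723) and Oaz1 (0.699), given as a description without a p. Spearman's rho was 0.81, 0.738, 0.699, 0.707 and 0.695, and without the 2 libraries farthest from the median, NTC replicate 4 at 0.4 µM and NTC replicate 2 at 10 µM, r was 0.718, 0.693, 0.649, 0.683 and 0.571. Without Adar KO replicate 2 at 0.4 µM it was 0.815, 0.779, 0.716, 0.689 and 0.697. All libraries share 1 experiment and its scaling.

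The wider pathway by dose went in both directions. Of 23 other p53 targets 3 rose and 5 fell in Adar KO at 0 µM (24.9% of all tested genes called), among them the kinase genes Plk2 (log2FC -2.67, adjusted p = 2.32e-05 in limma) and Plk3 (1.02, 0.00725), Gadd45a (1.70, 0.00674) and Pidd1 (-1.20, 0.00557). At 10 µM 8 rose and 4 fell (44.5% of all), with Plk2 at -3.19, Gdf15 at 1.80, Pidd1 at -1.54 and the death receptor gene Fas at 1.45. Within Adar KO, 10 µM against 0 µM raised 8 and lowered 3 (65% of all), with Xpc at -2.11, Plk2 at -2.03, Ppm1d at 2.00 and Fdxr at -1.58, and the median of the 23 was 0.37. Among 10 regulators, Cdkn2a was higher in Adar KO at 0 µM (1.26, 0.00133) and had 0.20 at 10 µM (0.564), and Trp53 was lower at both (-0.57, 0.000404, and -0.62, 2.38e-05). Chek1 (-2.11) and Atm (-0.61) fell in Adar KO at 0 µM. Within Adar KO, 10 µM against 0 µM raised 6 of the 10 and lowered 3 (65% of all), with Chek1 at 2.92, Hipk2 at -2.73, Cdkn2a at -1.97 and Trp53bp1 at -1.64. At 10 µM against NTC Hipk2 (-0.94) and Trp53bp1 (-0.70) fell and Atm rose (0.43). Of 10 BCL-2 family genes 3 rose and 0 fell in Adar KO at 0 µM, the largest being Bcl2a1b (1.19), and 3 rose and 5 fell at 10 µM, with Bak1 at -2.77 and Bcl2l1 at -2.44. From 0 to 10 µM within Adar KO 2 rose and 5 fell, with Bak1 at -3.79, Bcl2l1 at -3.12 and Bcl2l11 at -1.90. Among 4 CDK inhibitors Cdkn2c fell at 0 µM (-1.58, 0.0366) and Cdkn1b at 10 µM (-0.94, 0.00375). Within Adar KO, 10 µM raised Cdkn2c by 3.70 and gave -0.87 for Cdkn1b. At the 3 doses between, the other p53 targets higher and lower in Adar KO numbered 4 and 4 at 0.0006 µM, 3 and 3 at 0.016 µM and 3 and 0 at 0.4 µM, and the 16 proliferation genes 0 and 16, 0 and 15, and 0 and 3. Of the 12 interferon-stimulated genes 11, 12 and 12 were higher and 0 lower. Of all tested genes 28.6%, 31.8% and 13.3% were called at these doses. The counts at 0.4 µM include Adar KO replicate 2, which stood apart in its interferon-stimulated and proliferation genes. Without that library 736 genes of the table were called at 0.4 µM in place of 1503.

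Interferon and growth genes moved with the dose beside Cdkn1a, Bax and Sesn2. In Adar KO macrophages 11 of 12 interferon-stimulated genes fell from 0 to 10 µM (median -5.94) and 14 of 16 proliferation genes rose (median 3.09), while 7 of 8 genes of the integrated stress response, a pathway that also drives Sesn2, fell and 1 rose (median -1.92), where 65% of all tested genes were called. Of 6 NRF2 targets 3 rose and 2 fell. The library means of the interferon-stimulated genes went from 7.37 to 7.44 log2 CPM at 0 µM to 0.75 to 0.94 at 10 µM, and those of the proliferation genes from 3.85 to 4.35 to 6.88 to 7.21. In NTC 2 of 12 interferon-stimulated genes fell and 10 of 16 proliferation genes rose (median 1.25), against 13.6% of all. The part of these genes in the levels of the p53 targets was not tested.

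In set 1 the question is how the cultured cells compare with marrow cells. Cdkn1a was 3.95, 4.56 and 4.44 log2 CPM in BM progenitors, 4.66, 5.87 and 5.56 in BM monocytes, 10.09, 7.77 and 6.63 in ER-Hoxb8 progenitors and 7.72, 8.05 and 8.38 in ER-Hoxb8 cells after 4 days. Every ER-Hoxb8 library lay above every marrow library, and the ER-Hoxb8 progenitors were far apart from each other. The order of means was ER-Hoxb8 progenitors, ER-Hoxb8 at 4 days, monocytes, BM progenitors, and the first 2 did not differ beyond their spread. ER-Hoxb8 over BM progenitors, Cdkn1a rose by 3.85 on the log2 scale (standard error 0.68, adjusted p = 0.00151 in limma), Bax 2.84-fold (adjusted p = 0.00314), Ccng1 by 1.44 (0.35, 0.0101) on the log2 scale, Bbc3 by 1.75 (0.50, 0.024) and Sesn2 by 1.49 (0.48, 0.0409). Cdkn1a and Bax kept the call in 11 of 11 alternatives. The 5 of 9 genes, all upward, compare with 25.6% of all tested genes, and the medians were 1.49 and -0.08, the latter moved by 0.13 under quantile scaling.

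The spread among ER-Hoxb8 progenitors carries into these values. Bbc3, with 0.000943 to 0.0922 over its alternatives, lost the call without BM replicate 1 (adjusted p = 0.0618), 2 (0.0814) or 3 (0.0564) or ER-Hoxb8 replicate 1 (0.0922) or 2 (0.0589), with no filter (0.0535) and in a fit of the 2 groups only (0.0696). Ccng1, with 0.00347 to 0.0529, lost it in a fit of the 2 groups only (0.0529). Sesn2, with 0.0247 to 0.15, lost it without BM replicate 1 (0.0633), 2 (0.13) or 3 (0.108) or ER-Hoxb8 replicate 1 (0.96, 0.15), with no filter (0.132) and in a fit of the 2 groups (0.082). Mdm2 had 1.45 (0.0547), and without ER-Hoxb8 replicate 3, the library of its group with the most progenitor RNA, Mdm2 passed with 1.88 (0.0126) and Zmat3 with 2.48 (0.00453). Zmat3 also passed with the replicate block (1.56, 0.033), with alternatives up to 0.406. Eda2r passed without ER-Hoxb8 replicate 1 (-3.05, 0.0164). The BM progenitors, where Eda2r is high, were then the only libraries of the set above 0 log2 CPM. They alone took it past the filter, so this call carries no weight as a test. Of all tested genes 3106 were called, and 2007 without BM replicate 3. Among the regulators, Cdkn2a stood higher in ER-Hoxb8 progenitors by 7.98 (adjusted p = 3.82e-06 in limma). That size depends on the offset of the scale, because BM progenitors were at -3.81, -3.22 and -4.34. The last is the lowest value of the set. Only ER-Hoxb8 libraries of the set were above 0 log2 CPM for Cdkn2a and took it past the filter. Its call thus carries no weight as a test either. Trp53 had -0.58 (0.136), and 3 of 22 other p53 targets rose and 2 fell, against 25.6% of all tested genes called.

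ER-Hoxb8 cells at 4 days against ER-Hoxb8 progenitors gave 0 of 9 genes in limma, and 0% of all tested genes were called, with 1135 of 12134 at an unadjusted p under 0.05. The median was -0.54 for the 9 genes and -0.01 for all. Without ER-Hoxb8 progenitor replicate 2, Eda2r passed (-4.20, adjusted p = 0.00586), where all 3 libraries at 4 days are at the lowest value of the set and the size depends on the offset of the scale, and 1333 genes of the table were called. Without replicate 1 the log2FC of Cdkn1a turned from -0.11 to 0.85 (0.747). Replicate numbers paired these libraries (0.23 to 0.47), and with the replicate as a block 0 of the 9 genes passed.

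BM monocytes differed from BM progenitors in 1 of 9 genes, against 13.7% of all tested genes. Eda2r was 1.51, 0.34 and 1.04 log2 CPM in progenitors and -4.34, -3.99 and -4.34 in monocytes, where -4.34 is the lowest value of the set. All monocyte libraries were at or near that value, so the log2FC of -5.19 (standard error 0.85, adjusted p = 0.00335 in limma) depends on the offset of the scale and was -1.50 with a pseudocount of 1 CPM. Eda2r met the filter only through the BM progenitors, where it is high. The only other library of the set above 0 log2 CPM was ER-Hoxb8 progenitor replicate 1 (0.86). Its call is thus a description and carries no weight as a test. Phlda3 was 0.84, 0.34 and 1.08 in BM progenitors and -0.27, -4.34 and -2.56 in monocytes, so its size depends on the offset as well. It passed without monocyte replicate 1 (-4.20, adjusted p = 0.0474), under quantile scaling (-2.85, 0.0412) and in a fit of the 2 groups only (-3.14, 0.0446), with alternatives up to 0.287. In the fit of the 2 groups Phlda3 met the filter only through the BM progenitors, where it is high. That pass carries no weight as a test. Bbc3 passed under quantile scaling (2.08, 0.0111) and in that fit (1.31, 0.0266), with alternatives up to 0.227, and Cdkn1a in that fit (1.05, 0.0408), with alternatives up to 0.631. The medians were -0.51 and -0.09, and the call of all genes went from 1668 to between 601 and 986 without any 1 of the 6 libraries, namely BM progenitor replicates 1 (601), 2 (939) and 3 (665) and monocyte replicates 1 (986), 2 (809) and 3 (880).

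In set 2 several of the 7 tested genes were lower in MLCs than in macrophages of that origin, while the macrophages of both origins did not differ past the test. Cdkn1a was 6.47, 5.85 and 9.28 in BMD macrophages and 8.22, 8.29 and 8.58 in ER-Hoxb8 macrophages, and 0 of 7 genes passed between them in limma, against 1.97% of all tested genes (1086 of 12647 at an unadjusted p under 0.05). Its log2FC was 1.16 (95% interval from -0.35 to 2.67), BMD replicate 3 being above every ER-Hoxb8 library. It was 2.20 (adjusted p = 0.16) without BMD replicate 3, 0.80 without BMD replicate 1 and 0.49 without BMD replicate 2, both with an adjusted p of 1. The medians were 0.81 and 0.00. Without BMD replicate 3 the log2FC of Mdm2 turned from -0.19 to 0.40, and without BMD replicate 1 the calls over all genes fell from 249 to 154.

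BMD MLCs against BMD macrophages fell in 4 of 7 genes and rose in 0. Bax was 7.49, 8.05 and 8.19 in BMD macrophages and had a lowest, median and highest value of 5.41, 5.65 and 5.87 in the 6 BMD MLC libraries, without overlap. It fell by 2.25 (standard error 0.32, adjusted p = 9.66e-06 in limma), Ccng1 by 1.61 (0.35, 0.00118), Cdkn1a by 2.40 (0.64, 0.00583) and Mdm2 by 1.12 (0.33, 0.012). Of all tested genes 30.7% were called, and the medians were -1.61 and -0.01. Without BMD macrophage replicate 3, which stood apart, Cdkn1a had -1.36 (adjusted p = 0.129, range 0.000954 to 0.129) and Mdm2 -0.54 (0.236, range 0.00194 to 0.236), and 2469 genes of the table were called in place of 3883. Bax and Ccng1 kept the call in 14 of 14 alternatives. Sesn2 had -1.97 (0.165) and passed with a pseudocount of 1 CPM (-1.83, 0.0429), under quantile scaling (-2.01, 0.0367) and in a fit of the 2 groups only (-1.97, 0.0083), where its alternatives ran from 0.0083 to 0.435.

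ER-Hoxb8 MLCs against ER-Hoxb8 macrophages fell in 5 of 7 genes and rose in 0, against 34.7% of all tested genes called. Sesn2 was 6.00, 5.93 and 4.80 in the macrophages, and -1.36, 1.93 and 3.07 as lowest, median and highest in the 6 MLC libraries, without overlap. It fell by 4.00 (standard error 1.07, adjusted p = 0.00578 in limma), Zmat3 by 1.80 (0.47, 0.00488), Ccng1 by 1.66 (0.35, 0.00078), Bax by 1.49 (0.32, 0.000818) and Bbc3 by 1.91 (0.65, 0.025). Bbc3, with 0.00464 to 0.129 over its alternatives, lost the call without macrophage replicate 1 (0.0658), 2 (0.0783) or 3 (0.0646), with the replicate block (0.064) and in a fit of the 2 groups only (0.129). Mdm2 had -0.76 (0.077) and passed with the replicate block (-0.79, 0.0458) and in a fit of the 2 groups only (0.0378), with alternatives up to 0.214. Cdkn1a had -0.89 (0.283) in this comparison, and whether that differs from its fall in BMD cells was not tested. The medians were -1.66 for the 7 genes and -0.15 for all, the latter moved by 0.13 under quantile scaling. Culture and brain cells also differed in how RNA was extracted, which cannot be told apart from the tissue. The ER-Hoxb8 macrophages came from a Cas9 mouse, while the ER-Hoxb8 MLCs are labelled wild type. That difference cannot be told apart from the tissue either.

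**Figure D4:**
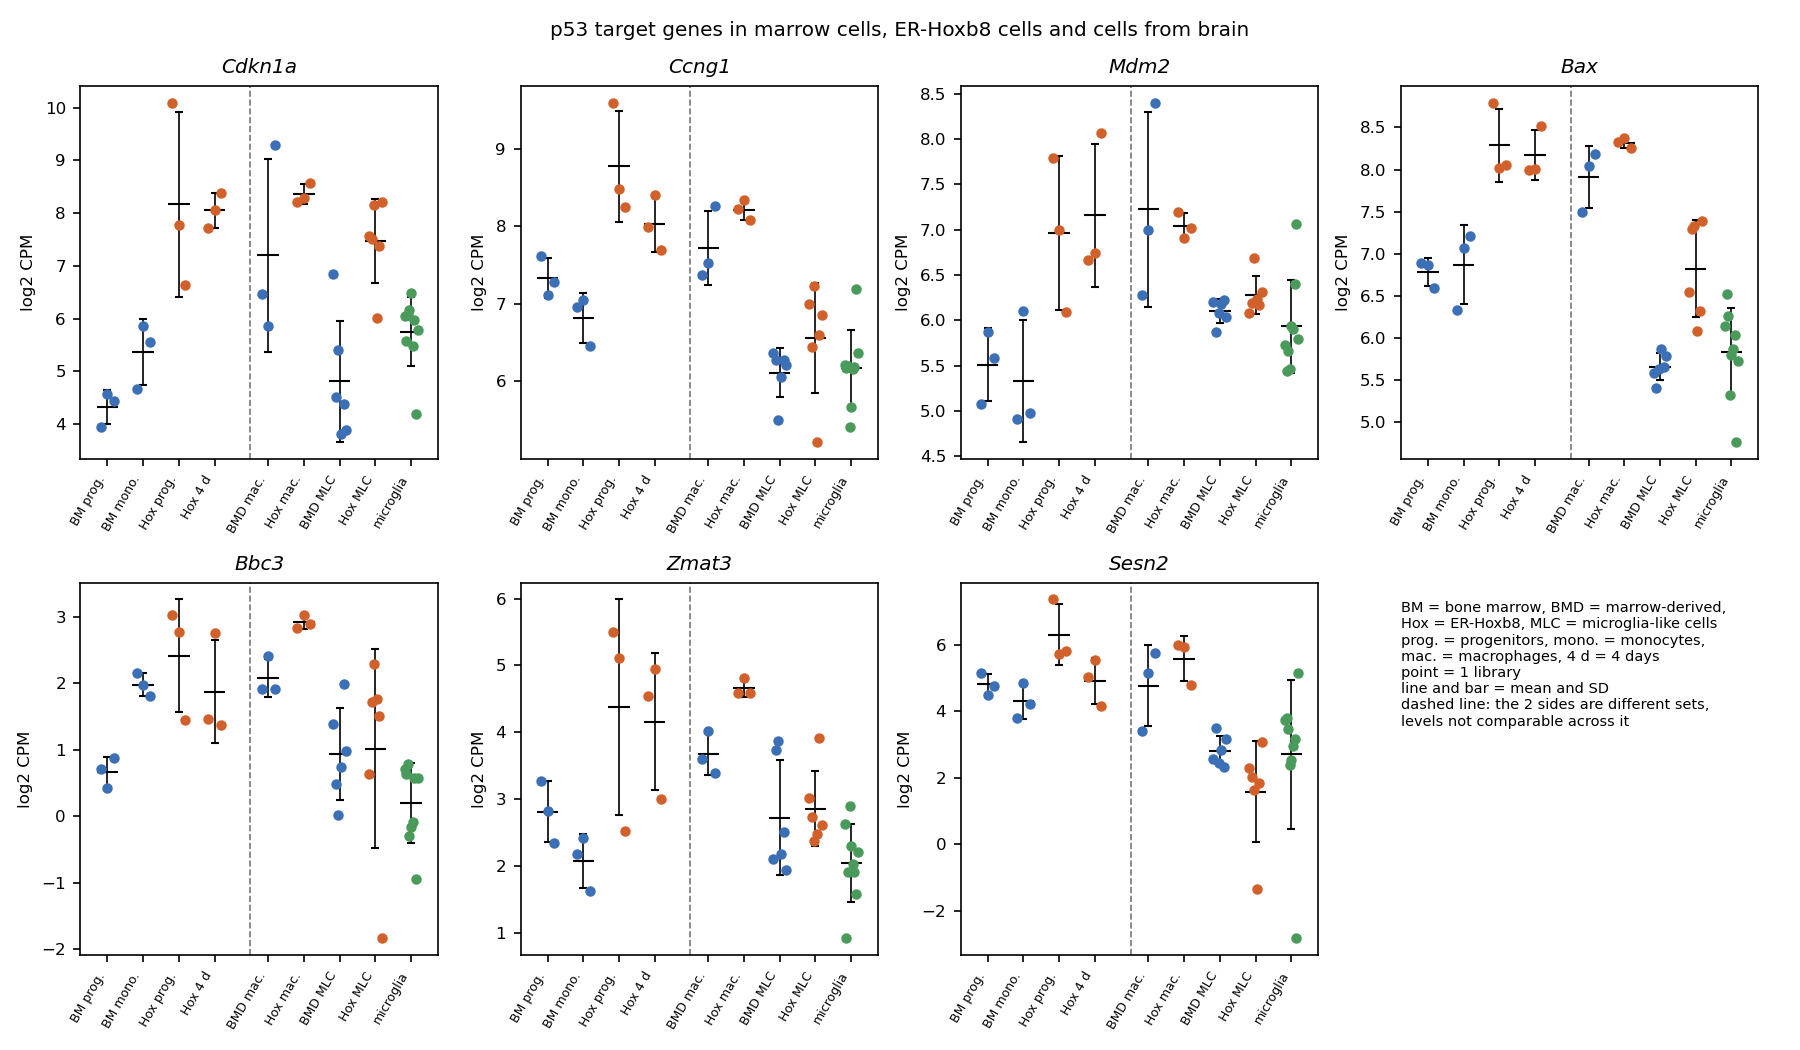
Log2 CPM of the p53 target genes in each library of the unedited groups, those of BM and early ER-Hoxb8 cells (set 1) and those of macrophages at day 7 and cells from brain (set 2), which are not on one scale. Cdkn1a lies at 3.95 to 4.56 in BM progenitors and 6.63 to 10.09 in ER-Hoxb8 progenitors.

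Among the cells from brain Cdkn1a and Bax were highest in ER-Hoxb8 MLCs. Lowest, median and highest values of Cdkn1a were 3.81, 4.45 and 6.84 in BMD MLCs, 6.01, 7.54 and 8.21 in ER-Hoxb8 MLCs and 4.19, 5.98 and 6.49 in microglia, so single libraries overlapped. Cdkn1a rose by 2.66 over BMD MLCs (standard error 0.52, adjusted p = 0.000859 in limma) and by 1.72 over microglia (0.47, 0.00576), and Bax by 1.17 (0.26, 0.00285) and 1.00 (0.24, 0.00163). These calls held in 17 of 17 and 20 of 20 alternatives, and both comparisons share the ER-Hoxb8 MLC libraries. They made 2 of 7 genes against 15.1% of all tested genes over BMD MLCs (medians 0.18 and -0.22, the latter moved by 0.18 under quantile scaling) and 2 of 7 against 33.8% over microglia (0.81 and -0.10). BMD MLCs against microglia gave 0 of 7 in limma, against 20.4% of all (3882 genes at an unadjusted p under 0.05), with medians of 0.10 and 0.06, the latter moved by -0.11. In order of means Cdkn1a ran from ER-Hoxb8 macrophages through ER-Hoxb8 MLCs, BMD macrophages and microglia to BMD MLCs, and past the first step neighbours did not differ beyond their spread.

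Single libraries moved some of these values. Without BMD MLC replicate 1 Cdkn1a was lower in BMD MLCs than in microglia (-1.35, adjusted p = 0.0362). Against microglia, Sesn2 passed in ER-Hoxb8 MLCs without microglia replicate 8 (-1.81, 0.00825) and with the replicate block (-1.56, 0.0214, alternatives up to 0.646), Bbc3 without ER-Hoxb8 MLC replicate 6 (1.38, 0.00663), Ccng1 without ER-Hoxb8 MLC replicate 4 (0.65, 0.0276) and Zmat3 without microglia replicate 4 (0.92, 0.0486). Against BMD MLCs, Ccng1 passed without ER-Hoxb8 MLC replicate 4 (0.71, 0.0473). Of 12 interferon-stimulated genes 11 were higher in ER-Hoxb8 MLCs than in ER-Hoxb8 macrophages (median 4.98), as were 7 of 7 neutrophil markers (6.78), 5 of 6 microglia markers (5.12), 4 of 4 tested lymphocyte markers (4.85) and 4 of 5 tested erythroid markers (7.28), with 0 of each lower, where 34.7% of all tested genes were called (16.6% higher). Some markers of neurons (1 of 2 tested higher), oligodendrocytes (2 of 4), astrocytes (2 of 4, with 1 lower) and endothelium (2 of 2) differed too. Per the methods the cells from brain were sorted after staining for leukocyte and myeloid surface proteins. How far that sort removed other cells was not tested. The part of other cells' RNA in the levels of the p53 targets was not tested. Of 8 macrophage identity genes 2 were higher and 2 lower, and of 7 progenitor markers 1 was higher.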

How the data were processed

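The 92 columns of the deposited table were taken with groups and replicate numbers from the sample labels, and 0 were left out. Per the submitters' processing notes and the study's methods, the authors assigned reads to mouse transcripts with kallisto 0.46.0 (GRCm39), summed them to genes with tximport, and scaled them with edgeR's TMM. The deposited values are log2 CPM, and the authors state no depth. Of 29957 rows 1 has no name and was dropped (0.00226% to 0.0582% of a library). From the deposited values, limma 3.58.1 in R 4.3.3 (1 mean per group, eBayes with trend) was run on genes with log2 CPM above 0 in at least 3 libraries of a set (6 with cells from brain), Benjamini-Hochberg adjusted over all of them, and genes with an adjusted p under 0.05 were called. It was tested on simulated data with independent noise, where some genes were shifted by 2 on the log2 scale. Smaller shifts and libraries that stand apart were not simulated. Replicate numbers come from the labels, and were checked as pairs by residual correlations over genes, above 0.1 in all of at least 3 pairs in 2 comparisons only.

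The text names all 9 genes and Adar. From the lists of other p53 targets, p53 regulators, BCL-2 family and CDK inhibitors it names up to 4 called genes with the largest log2FC in the KO comparisons, and it adds the 5 genes most like the members over the baricitinib libraries. Btg2, Chek1, Trp53 and the rest fall under that rule, while Trp53 and Cdkn2a are also given elsewhere after their values were seen. Other lists (proliferation, interferon-stimulated, integrated stress response, NRF2 targets, cell type markers) are given as counts. The members and lists were chosen with earlier results of these data known. Tigar and Trp53cor1 of the p53 list and Adgre1 are not in the table, which has Emr1. Alternatives were a replicate block, leaving out each library, no filter, a pseudocount of 1 CPM, quantile scaling, fits of 2 groups, a fold limit of 2 on the log2 scale for KO against NTC and for 10 against 0 µM in Adar KO, and NTC macrophage replicate 2 added on a common scale. A block by the series of the baricitinib library names was chosen after the data were seen. Promoters are RefSeq GRCm38.p6, read for sequence only. Tables and figures used Python 3.11.15, numpy 2.4.6, pandas 2.3.3 and matplotlib 3.10.9.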

Additional observations from a re-analysis of the deposited data

Results flagged for a closer look

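Among 57 sets of a gene in a group of 4 to 10 libraries, 6 had a library far from the others, and chance alone marks about 1 in 20. Sesn2 was lowest at -2.83 log2 CPM in microglia replicate 8 (others 2.37 to 5.16), the library with neuron RNA, where Cdkn1a was also lowest at 4.19 (others 5.48 to 6.49). Sesn2 was lowest at -1.36 in ER-Hoxb8 MLC replicate 4 (others 1.62 to 3.07) and at 5.88 in sgRNA 2 macrophage replicate 1 (others 6.28 to 6.44). Ccng1 was lowest at 5.5 in BMD MLC replicate 3 (others 6.05 to 6.36). Zmat3 was highest at 4.65 in NTC replicate 2 at 0.4 µM baricitinib (others 4.4 to 4.45).

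The KO effect differed between groups in 5 tests of the difference itself in limma. Between macrophages and progenitors it differed for Cdkn1a by 1.13 (adjusted p = 0.00365) and for Mdm2 by 1.08 (adjusted p = 0.0342). Between 10 and 0 µM baricitinib it differed for Cdkn1a by 1.45 (adjusted p = 0.00144), for Bax by 0.88 (adjusted p = 0.000455) and for Sesn2 by -2.09 (adjusted p = 0.000114).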

How the results depend on the processing

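No value of a p53 target gene that passed the test changed direction past it under any refit. Of 1555 values with 1 library left out, 1439 kept their side of the threshold and size, 82 fell short of it, 26 passed it and 8 others moved. For the replicate block it was 172 of 181, for quantile scaling 163, for no filter 163, for a pseudocount of 1 CPM 178, for fits of 2 groups 131 of 145, and with NTC macrophage replicate 2 added 19 of 21. The causes were not tested, except that no filter means more genes in the adjustment and 2-group fits and left-out libraries mean fewer samples. All alternatives set out beforehand were run.

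The number of p53 target genes called moved as follows, among other cases. The further calls gained or lost are named with their comparisons in the results above. With no filter it was 1 in KO progenitors (2), 0 in KO macrophages (2), 1 for the stage difference (2), 1 at 0 µM (2), 0 at 0.0006 and 0.016 µM (1 each), 0 for 10 µM in NTC (3), 0 for the NTC trend (1) and 3 for ER-Hoxb8 over BM progenitors (5), where brackets hold the number reported. With fits of 2 groups it was 1 in KO progenitors, 1 at 0 µM, 2 at 0.016 µM, 4 for monocytes over progenitors (1) and 2 for ER-Hoxb8 over BM progenitors. In the fit of monocytes and progenitors, Eda2r and Phlda3 met the filter only through the progenitors, where they are high. With quantile scaling it was 1 for the stage difference, 2 at 0.0006 µM, 2 at 0.016 µM, 2 for the NTC trend and 3 for monocytes. With the replicate block it was 2 at 0.016 µM, 1 at 0.4 µM (0) and 3 for the NTC trend. With NTC macrophage replicate 2 added it was 1 in KO macrophages. With the fold limit it was 0 in KO progenitors, KO macrophages, the stage difference and at 0, 0.0006, 0.016 and 10 µM (3), 1, Sesn2, for the dose difference (3), and 2 for 10 µM in Adar KO (6). It was not applied to the stage comparisons.

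With each library left out in turn the number ran from 1 to 2 in KO progenitors, 0 to 2 in KO macrophages, 1 to 2 for the stage difference, 0 to 2 at 0 µM, 0 to 1 at 0.0006 and 0.016 µM, 0 to 2 at 0.4 µM, 2 to 3 at 10 µM, 0 to 2 for 10 µM in NTC, 0 to 2 for the NTC trend, 1 to 2 for monocytes, 3 to 7 for ER-Hoxb8 over BM progenitors, 0 to 1 for ER-Hoxb8 at 4 days, 2 to 4 for BMD MLCs over macrophages and 0 to 1 for BMD MLCs over microglia.

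In the replicate block, where labels pair libraries that residuals do not, limma gave Cdkn1a -0.56 at 0.016 µM (adjusted p = 0.0175) and 0.57 at 0.4 µM (0.0393), NTC trends of 0.16 for Cdkn1a (0.016) and 0.09 for Bax (0.0421), Mdm2 -0.79 for ER-Hoxb8 MLCs over macrophages (0.0458), Zmat3 1.56 for ER-Hoxb8 over BM progenitors (0.033) and Sesn2 -1.56 for ER-Hoxb8 MLCs over microglia (0.0214), and Bbc3 lost its calls for 10 µM in Adar KO (0.104) and for ER-Hoxb8 MLCs over macrophages (0.064).

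The running numbers in the baricitinib library names step through the doses in 4 series, which the replicate numbers do not follow at every dose, so that libraries with 1 number belong to different series in every KO against NTC pair at 0.016 and 0.4 µM. A replicate block by these series was added after the data were seen. The labels do not name the series, and residuals do not pair by it either (correlations from -0.146 to 0.129). Under it 64 of 70 values of the tested genes kept their side of the threshold. Cdkn1a passed at 0 µM (-0.65, adjusted p = 0.007), 0.016 µM (-0.54, 0.0114), 0.4 µM (0.60, 0.0149) and for the NTC trend (0.14, 0.0141), while Bax for 10 µM in NTC (0.38, 0.0638) and Bbc3 for 10 µM in Adar KO (-0.76, 0.0641) fell short. The number called was 3 at 0 µM (2), 2 at 0.016 µM (1), 1 at 0.4 µM (0), 2 for 10 µM in NTC (3), 5 for 10 µM in Adar KO (6) and 2 for the NTC trend (1).

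Over all genes, no filter gave 972 calls in place of 1508 for the stage difference, 885 for 1503 at 0.4 µM, 916 for 1540 for 10 µM in NTC, 736 for 1306 for the NTC trend, 1099 for 1668 for monocytes and 2 for 0 for ER-Hoxb8 at 4 days (1333, 1 and 2 without ER-Hoxb8 progenitor replicates 2 and 1 and day 4 replicate 2). Fits of 2 groups gave 228 at 0.4 µM, 2357 for 10 µM in NTC, 3945 for monocytes and 1938 for 3106 for ER-Hoxb8 over BM progenitors, and quantile scaling 2718 for monocytes. With 1 library left out, KO progenitors gave 41 (KO replicate 2 or 3), 47 (NTC 2) and 67 (NTC 3) for 102, and without NTC macrophage replicate 1 KO macrophages gave 1326 for 2420 and the stage difference 1003. Quantile scaling moved the median of all genes by -0.12 in KO macrophages, -0.13 for the stage difference, 0.13 for ER-Hoxb8 over BM progenitors and for ER-Hoxb8 MLCs over macrophages, -0.11 for BMD MLCs over microglia and 0.18 for ER-Hoxb8 over BMD MLCs. The share of called genes that were higher went from 66.4% to 48.7% in KO macrophages, 72.5% to 57.2% for the stage difference, 56.6% to 46.1% at 0.4 µM and 44.1% to 55% for ER-Hoxb8 over BM progenitors. Groups of 2 to 4 libraries and low levels of Bbc3, Phlda3 and Eda2r limit what can be seen.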
